A study of Mus musculus with 3 samples.

Results

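The gene of the epidermal growth factor (EGF) receptor, Egfr, and 5 genes of its ligands, Hbegf, Areg, Ereg, Epgn and Tgfa, were examined in a list of c-FOS binding sites from mouse basal cell carcinoma cells. The members are the listed peaks whose midpoint lies in 1 of 4 windows of the mm9 mouse assembly that enclose these genes, and there were 18 of them among 15011 peaks in all. Areg, Ereg and Epgn lie next to each other and share 1 window. The genes were chosen with earlier results of these data known. Their windows were fixed by gene position and not by any peak value, but no mm9 gene annotation was used here. A peak is therefore placed in a window and not on a promoter, exon or intron.

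The peaks come from chromatin immunoprecipitation followed by sequencing (ChIP-seq) of ASZ001 cells, a line established from a mouse basal cell carcinoma. The 2 c-FOS ChIP samples, made with a rabbit monoclonal antibody, and the 1 input sample, which had no antibody, shared genotype and treatment. All carried RasV12, an activated Ras, together with knockdown of the TGF-beta receptor TGFbR1 by shRNA, and all were taken 6 days after induction with Dox and 4OHT. The promoters that drive RasV12 and the shRNA, and whether the line is a single clone, are unknown here. An uninduced arm was not analysed here, so the values describe binding in 1 induced state. The authors deposited 1 list for both ChIP samples, with a chromosome, start and end per peak. The list gives no spread between the samples, no read depth and no peak strength, and no difference below was tested.

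The EGF receptor is a receptor tyrosine kinase of keratinocytes and many other epithelial cells. Its ligands are made as membrane-anchored precursors and are released by metalloproteases, after which they act on the same cell or its neighbours. Receptor signalling passes through Ras and the MAP kinases, which induce Fos. The c-FOS protein pairs with JUN proteins to form AP-1, which binds DNA elements of the form TGANTCA.

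Because an mm9 genome was not used here, the sequences under the peaks are not shown. RefSeq promoters of the GRCm38.p6 assembly were at hand for 4 of the 6 genes (Egfr, Areg, Epgn and Tgfa), and the 250 bases before the start of each were searched. None of the 4 held TGANTCA, searched with any base at N, which is broader than the sites AP-1 prefers. With any base at N, it was found in 6.75% of 32851 RefSeq promoter stretches of that length. The cyclic AMP response element TGACGTCA is bound by CREB and ATF proteins, among others. It was found in Areg alone among the 4, and in 1.55% of all stretches. Each of these elements covers both strands when read on one, and matches to them cannot overlap. The Areg stretch also held the TATA-box letters TATAAA, as did that of Epgn, against 7.59% of all stretches. TATAAA was searched on the gene's own strand only and was added after the sequences had been seen. Areg is printed because it held the only response element, and Tgfa because its window held the most peaks; capitals mark TGACGTCA and TATAAA. Areg lies on the plus strand at chr5:91139349-91139598 and Tgfa on the plus strand at chr6:86194972-86195221, both in GRCm38.p6.
Areg: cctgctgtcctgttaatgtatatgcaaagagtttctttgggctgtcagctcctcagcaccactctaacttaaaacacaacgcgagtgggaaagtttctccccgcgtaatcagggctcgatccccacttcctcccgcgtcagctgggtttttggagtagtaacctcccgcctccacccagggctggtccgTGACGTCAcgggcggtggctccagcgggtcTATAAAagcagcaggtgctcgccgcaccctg
Tgfa: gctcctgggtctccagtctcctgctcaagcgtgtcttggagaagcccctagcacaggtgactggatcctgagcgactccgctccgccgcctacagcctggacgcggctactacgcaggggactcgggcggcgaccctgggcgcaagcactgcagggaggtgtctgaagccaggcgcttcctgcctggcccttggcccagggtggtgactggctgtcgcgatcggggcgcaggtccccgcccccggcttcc
In Areg, TGACGTCA began 61 bases and TATAAA 31 bases before the start, while TATAAA in Epgn began 86 bases before it. The Tgfa stretch had a GC content of 69.2%, the highest of the 4, followed by Egfr at 60.8%, Areg at 57.2% and Epgn at 46.8%, against a median of 52.4% over all stretches. These coordinates belong to another build than the peaks, so whether any listed peak covers a promoter was not analysed here. A match describes letters and is not evidence of a bound site.

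Each of the 4 windows held at least 2 c-FOS peaks. Tgfa had 8 peaks, the Areg, Ereg and Epgn window had 5, Hbegf had 3 and Egfr had 2. The windows span 810 kb together and held 22.2 peaks per Mb, against 5.69 per Mb over chromosomes 1 to 19 and X. Their lengths differ, so each count was read against whole tiles of the same length laid along those chromosomes. Tiles with at least 1 peak made up 41.6% at the length of the Egfr window, 28.2% at that of Hbegf, 38.8% at that of the Areg, Ereg and Epgn window, and 35.6% at that of Tgfa. On the locus's own chromosome the share was 65.4% for Egfr, 25.1% for Hbegf, 58.8% for the Areg, Ereg and Epgn window and 45.7% for Tgfa. Tiles with at least 2 peaks made up 27.3%, 15.0%, 24.4% and 21.5% in that order of loci. On the locus's own chromosome they made up 52.1%, 11.4%, 42.7% and 30.4%. A window laid around genes is not a like sample to such tiles, which also cover gene-poor and unsequenced stretches.

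**Figure D1:**
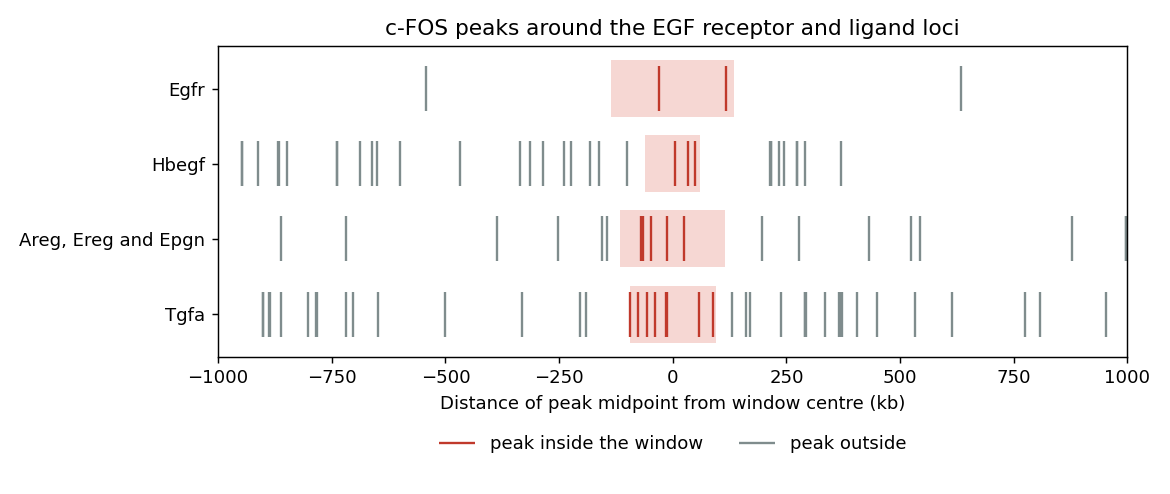
c-FOS peaks within 1 Mb of the centre of each window, 1 row per locus, by distance of the peak midpoint from the window centre in kb. Red lines are the member peaks inside the shaded window and grey lines are other peaks. The 2 Egfr peaks stand almost alone, whereas the Hbegf and Tgfa windows lie among many others.

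Egfr encodes the receptor itself, and its window was the sparsest of the 4. It covers 16.6 to 16.87 Mb of chromosome 11 and held 1 peak at chr11:16704184-16704360, of 177 bp, and 1 at chr11:16851162-16851375, of 214 bp. They lie 146.8 kb apart, the first 104.3 kb after the start of the window and the second 18.7 kb before its end. At 7.41 peaks per Mb the window had 0.492 times the density of chromosome 11, which was 15.0 per Mb. At least 2 peaks were found in 52.1% of the 451 tiles of 270 kb on that chromosome and in 27.3% of such tiles in all, or in 65.6% of those that were not empty. The count is thus near the background of its own chromosome.

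The surroundings of Egfr were emptier still. Before the first peak lay 512.0 kb without a listed peak, and after the second 518.0 kb. Of the 1832 gaps between neighbouring peaks on chromosome 11, 1.97% were at least as long as that last one, and the median gap there was 16.6 kb. The Egfr pair was therefore the whole of the list across 1177 kb between its outer neighbours. Outside the window, the sequence up to 1 Mb from its centre held 2 peaks, or 1.16 per Mb, so the window was 6.41 times as dense as its flanks. In the RefSeq gene order of GRCm38, the protein-coding neighbours of Egfr are Sec61g on the side of lower coordinates and Fbxo48 on the other.

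Hbegf encodes heparin-binding EGF-like growth factor, a ligand made by keratinocytes during wound repair and known as an AP-1 and Ras target. Its window, 36.61 to 36.73 Mb of chromosome 18, is the shortest at 120 kb. It held peaks at chr18:36675296-36675394, chr18:36703608-36703752 and chr18:36719246-36719405, with widths of 99, 145 and 160 bp. All 3 fell on the side of the window centre with higher coordinates, within 44.1 kb of each other. The first lay 5.34 kb past the window centre. At least 3 peaks were found in 4.63% of the 756 tiles of 120 kb on chromosome 18 and in 8.64% of such tiles in all. Among tiles that held any peak the share was 30.7%.

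At 25.0 peaks per Mb, the Hbegf window was 6.65 times as dense as chromosome 18, where the mean was 3.76 per Mb. Its flanks up to 1 Mb from the centre were also rich in peaks, with 30 peaks or 16.0 per Mb, which is 4.25 times the chromosome mean. Against those flanks the window was 1.57 times as dense, the lowest such ratio of the 4 loci. The stretch of 165.5 kb after the last Hbegf peak held none. Pfdn1 and Slc4a9 are the neighbouring protein-coding genes of Hbegf in RefSeq order.

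Areg, Ereg and Epgn encode amphiregulin, epiregulin and epigen, ligands that epithelial cells often make together. Their shared window, 91.4 to 91.63 Mb of chromosome 5, held 5 peaks. A close pair came first, at chr5:91444419-91444516 and chr5:91448531-91448628, 4.01 kb apart. The others followed at chr5:91467742-91468030, chr5:91503380-91503596 and chr5:91539147-91539305. From the close pair onward the gaps were 19.1, 35.3 and 35.5 kb, so the 5 peaks span 94.9 kb. The last 90.8 kb of the window, measured from the midpoint of the fifth peak, held none, and the next listed peak came 172.8 kb after it.

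The widths at this cluster were uneven. Both peaks of the close pair had 98 bp, the minimum of the whole list, while the third had 289 bp and the fourth 217 bp. The fifth had 159 bp, close to the list median of 158 bp. At 21.7 peaks per Mb, the window was 2.03 times as dense as chromosome 5 (10.7 per Mb) and 2.75 times as dense as its flanks (7.91 per Mb). At least 5 peaks were found in 19.9% of the 663 tiles of 230 kb on chromosome 5 and in 9.14% of such tiles in all, or in 23.6% of those that were not empty. RefSeq orders the genes of GRCm38 as Mthfd2l, Epgn, Ereg, Areg and Btc toward higher coordinates. Btc encodes betacellulin, a further EGF receptor ligand. The first listed peak beyond the window on that side was at chr5:91712132-91712276, 82.2 kb past its end, and was not assigned to a gene.

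Tgfa encodes transforming growth factor alpha, a ligand of hair follicles and epidermis whose loss gives mice the wavy coat of the waved-1 mutant. Its window, 86.09 to 86.28 Mb of chromosome 6, held the most peaks and the widest. A first run of 4 peaks lay at chr6:86090597-86090725, chr6:86107512-86107777, chr6:86129066-86129194 and chr6:86145424-86145659, with gaps of 16.8, 21.3 and 16.2 kb. A close pair followed at chr6:86169606-86169789 and chr6:86172248-86172592, 2.46 kb apart, the shortest gap among the members. After 71.1 kb without a peak came chr6:86243687-86244010 and chr6:86274289-86274537. The 8 peaks thus run across nearly the whole window, over 183.9 kb. The first of them lies 0.661 kb inside the window edge and is the member nearest to any boundary, while the nearest peak outside any window, at chr5:91369494-91369620, lies 30.4 kb from the Areg, Ereg and Epgn window.

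At 42.1 peaks per Mb, the Tgfa window was 5.77 times as dense as chromosome 6 (7.30 per Mb) and 2.31 times as dense as its flanks (18.2 per Mb). At least 8 peaks were found in 3.18% of the 786 tiles of 190 kb on chromosome 6 and in 2.68% of such tiles in all. With empty tiles left out the share was 7.54%. The highest count in a tile of this length was 18 on chromosome 6 and 42 over all chromosomes. Add2 and Fam136a are the neighbouring protein-coding genes of Tgfa in RefSeq order, and peaks in the window could lie nearer to a neighbour than to Tgfa.

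**Figure D2:**
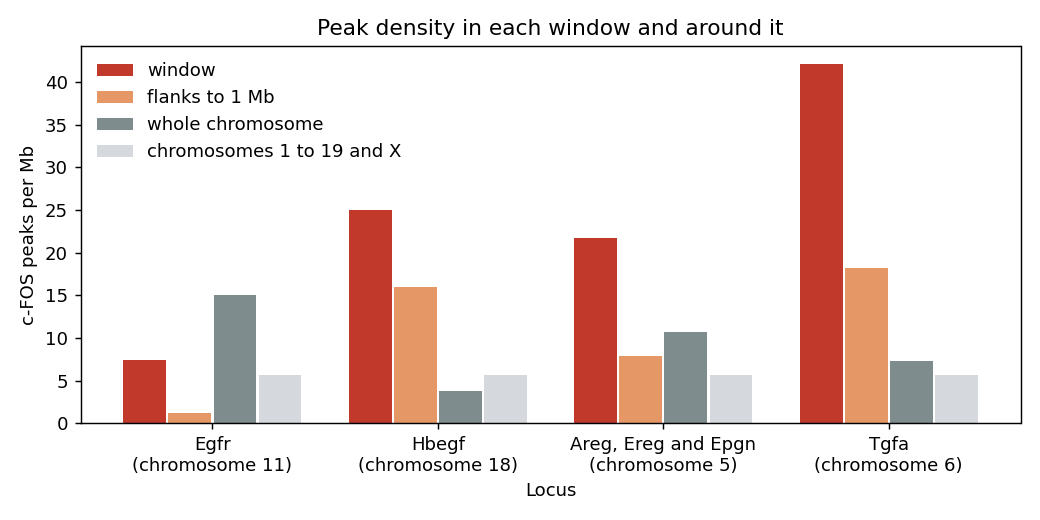
c-FOS peaks per Mb in each window, in its flanks up to 1 Mb from the window centre, on its whole chromosome and on chromosomes 1 to 19 and X. The Tgfa window was the densest at 42.1 per Mb, and Egfr, at 7.41 per Mb, was the only 1 of the 4 below its chromosome mean (15.0 per Mb).

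The order of the loci by density depends on what stands beside them. Against their own chromosomes, Hbegf came first at 6.65 times the mean, then Tgfa at 5.77, the Areg, Ereg and Epgn window at 2.03, and Egfr at 0.492. Against their flanks, Egfr came first at 6.41 times, then the Areg, Ereg and Epgn window at 2.75, Tgfa at 2.31 and Hbegf at 1.57. The Egfr ratio to its flanks rests on 2 peaks in the window and 2 in the flanks, and both Hbegf ratios rest on 3 peaks in the window. By the share of own-chromosome tiles with as many or more peaks, Tgfa (3.18%) was rarer than Hbegf (4.63%). No error can be given to any of these ratios, and the order between neighbours was not tested.

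**Figure D3:**
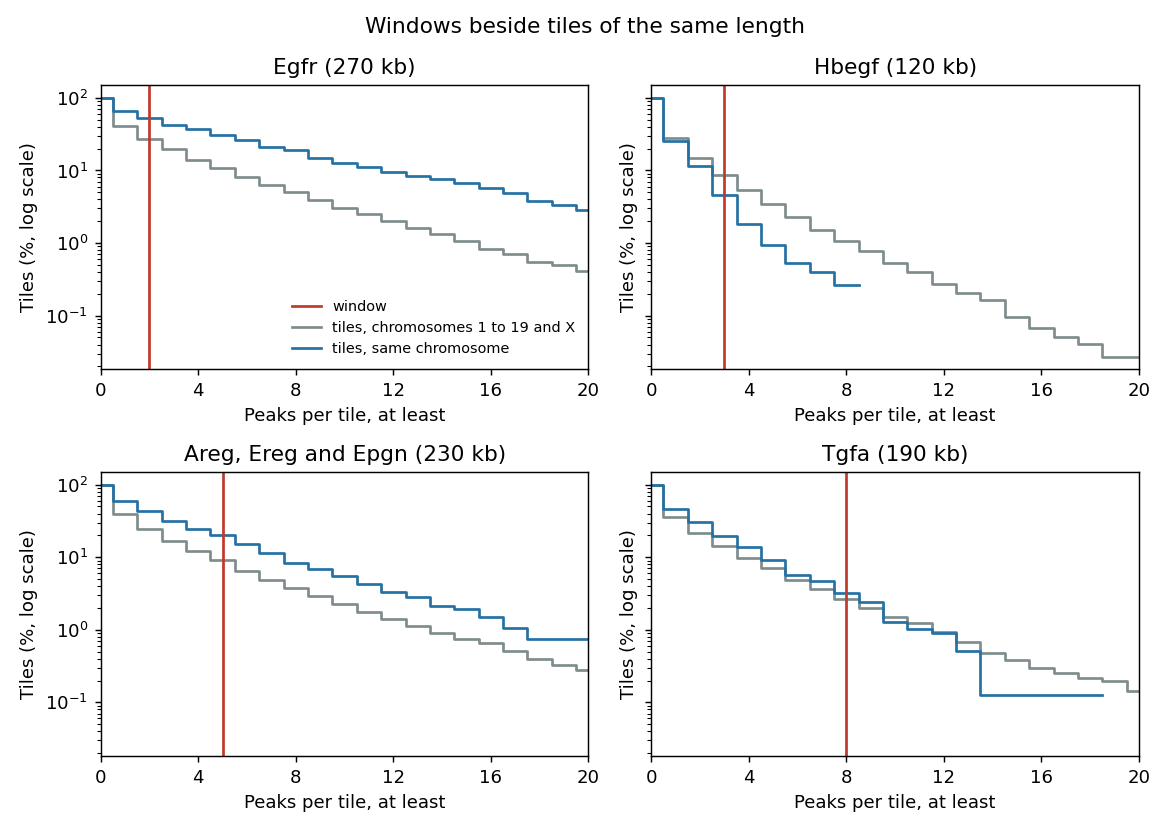
Share of tiles (percent, log scale) that held at least the number of peaks on the horizontal axis, for tiles as long as each window, over chromosomes 1 to 19 and X (grey) and on the same chromosome (blue). The red line marks the count of the window: at Tgfa it meets the curves at 2.68% and 3.18%, and at Egfr at 27.3% and 52.1%.

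The member peaks had a median width of 180.5 bp and ranged from 98 to 345 bp, against a median of 158 bp and a range of 98 to 2729 bp over the list. Of the 18, 12 were wider than the list median, against 50% of all peaks. The Tgfa window supplied 6 of these 12, the Areg, Ereg and Epgn window 3, Egfr 2 and Hbegf 1. Widths over 200 bp were found in 8 members, or 44.4%, against 31.9% of the list, and 5 of the 8 were at Tgfa. The widest member, the second peak of the Tgfa close pair at 345 bp, was as wide as or wider than 92.4% of all peaks. By contrast, no Hbegf peak exceeded 160 bp. The minimum width of 98 bp was found in 2 members (11.1%), against 10.7% of the list, and none of the 18 exceeded 500 bp, against 1.75% of the list. Width is not binding strength, and its floor may be set by the peak caller.

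**Figure D4:**
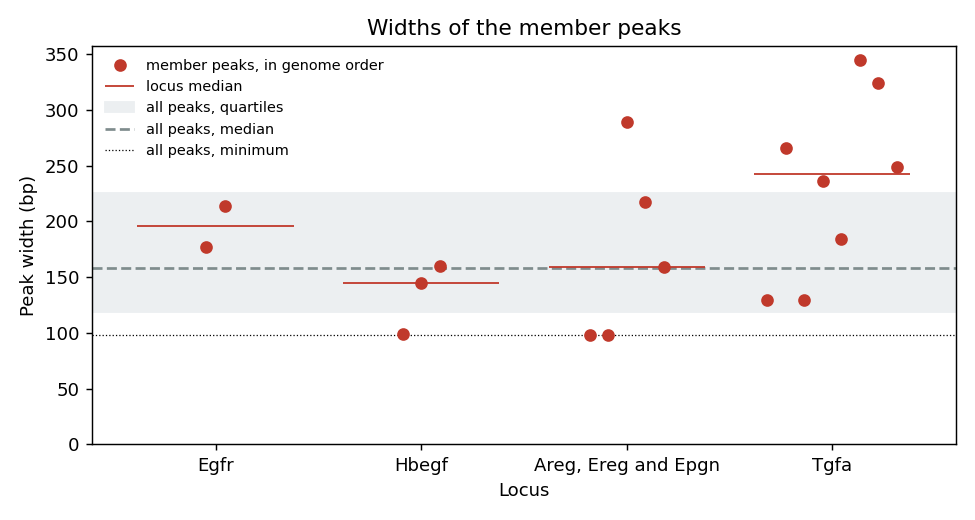
Width in bp of each of the 18 member peaks, in genome order within each locus, with the locus median as a red line. The grey band and dashed line give the quartiles (119 and 225 bp) and median (158 bp) of all 15011 peaks, and the dotted line their minimum of 98 bp. The Tgfa median of 242.5 bp lies above the band, and the 3 Hbegf peaks lie between 99 and 160 bp.

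Few member peaks had a neighbour within 10 kb. None of the 18 had a neighbour within 1 kb, against 24.9% of all peaks. A neighbour within 10 kb was found for 4 members (22.2%), against 48.7% of the list, and these 4 are the close pairs at Tgfa and at the Areg, Ereg and Epgn window. The median distance to the nearest peak was 16.8 kb for the members and 10.7 kb over the list. At the other end, 2 members (11.1%), both at Egfr, had no neighbour within 100 kb, against 11.9% of the list. Inside the windows, the median gap was 21.3 kb at Tgfa, 21.9 kb at Hbegf and 27.2 kb at Areg, Ereg and Epgn. It was 146.8 kb at Egfr, against 30.5 kb between neighbours over the list. A gap inside a window cannot exceed the window's length, so these medians are not a like comparison. Neighbouring peaks at Tgfa and in the Areg, Ereg and Epgn window lay 2.46 to 71.1 kb apart. They formed no tight group at a single site.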

How the data were processed

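The data are c-FOS ChIP-seq peaks of ASZ001 cells. Bowtie2 alignment to mm9 and MACS2 peak calling by the authors are named in the submitters' processing notes; no version, threshold, role of the input or way of combining the 2 ChIP samples is stated. The deposited values are peak starts and ends, printed here 1-based. Against chromosome lengths in GenomeInfoDb 1.38.1 (R 4.3.3), 0 peaks lay beyond an mm9 end and 55 beyond an mm10 end. Read depth is unknown, so precision cannot be given.

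Peaks were assigned to windows by midpoint with Python 3.11.15, numpy 2.4.6 and pandas 2.3.3, and figures drawn with matplotlib 3.10.9. Counting was checked on simulated lists. All peaks of the windows are named, by rule, and the genes next to each member. The other pathway genes listed for an mm9 annotation were not analysed here. The members and lists were chosen with earlier results of these data known. With 1 list there was no test. Alternatives were overlap instead of midpoint, wider peaks, merging within 1000 bp or 10 kb, windows changed by 50 kb, and other tiles; flanks to 500 kb were added after seeing the data.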

Additional observations from a re-analysis of the deposited data

How the results depend on the processing

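Of 40 alternative values for the window counts, tile shares, flank ratios and widths, 26 stayed within the margin set for them (1.5 times for counts and ratios, a Wilson 95% interval for tile shares, 1 SD for width) and 14 moved. Several of the 26 could not have moved, so their number does not measure robustness. No member had a neighbour within 1 kb, so merging within 1000 bp could change no count. Merging within 10 kb could change none at Egfr or Hbegf. No peak lay across a window edge, so overlap gave the same counts as midpoints. Shortening each window by 50 kb on both sides gives a smaller stretch by construction. It left 1 peak at Egfr, 1 at Hbegf, 3 in the Areg, Ereg and Epgn window and 3 at Tgfa. Keeping only peaks wider than the list median left 1 at Hbegf and 3 in the Areg, Ereg and Epgn window. The share of tiles with as many or more peaks was 52.1% for Egfr, 4.63% for Hbegf, 19.9% for the Areg, Ereg and Epgn window and 3.18% for Tgfa when tiles came from the same chromosome. It was 65.6%, 30.7%, 23.6% and 7.54% in that order of loci when empty tiles were left out. Leaving out empty tiles raises each share by construction, so the number that moved does not measure fragility either. With flanks to 500 kb, chosen after seeing the data, the Egfr flanks held 0 peaks and gave no ratio. The ratio was then 1.22 at Hbegf, 2.39 in the Areg, Ereg and Epgn window and 2.01 at Tgfa. With flanks to 1 Mb these ratios were 1.57, 2.75 and 2.31. No paired analysis was possible because the list names no replicate, and leaving out a replicate or applying a stricter threshold was not run for the same lack of columns. Depth behind any peak is unknown.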

Other observations

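Windows of the same length laid side by side next to each locus show how the peaks go on beyond it. Around Hbegf, the 3 such windows toward lower coordinates held 2, 4 and 2 peaks, and the 3 toward higher coordinates, from near to far, held 0, 8 and 1, against 3 in the Hbegf window itself. The second window after Tgfa held 9 peaks, against 8 at Tgfa, so the Tgfa window was not the fullest of the 7 laid there. Around the Areg, Ereg and Epgn window the 6 adjoining windows held between 0 and 3 peaks, against 5 in the cluster. At Egfr they held 0 or 1, against 2. Which genes the adjoining windows contain was not analysed here.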
